A study of Mus musculus with 20 samples.

Results

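Foxj1-type wells are wells of dissociated mouse habenula at embryonic day 18 (E18) that carried transcripts of at least 2 of the 3 genes Foxj1, Ak7 and 1500015O10Rik. The rule found 52 such wells among 1082 kept wells of 5 plates, out of 4811 kept wells in the whole study of 20 plates. A plate has 384 wells that each receive a cell. Kept wells had 1000 or more counts apart from mitochondrial and spike-in transcripts, 500 or more detected genes and a mitochondrial share of no more than 20%. The wells were chosen by the counts of these 3 genes, so their levels are given as a description and are not tested.

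C57BL/6 mice at E18 were the source of all 5 plates: the left habenula filled 2, the right habenula 2 and both sides together 1, whose title gives another stage than its other labels. For comparison, the same rule was applied to 15 plates of the Brn3a-tauLacZ line from E11 to the adult. The labels name neither the number of mice behind a plate, nor their sex, nor the gate of any cell sort, so the spread between plates may be technical in part. Cel-seq2, the method used, primes on the poly(A) tail and tags each transcript with a 6-base unique molecular identifier (UMI).

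Ependymal cells are the epithelium that lines the brain ventricles, and the habenula borders the third ventricle. They arise from radial glia, the neural stem cells of the embryo, and carry tufts of motile cilia that move cerebrospinal fluid. Foxj1 is the transcription factor that switches on motile cilium genes, in concert with the RFX factors, and multiciliated cells use Gmnc, Mcidas, Ccno, Deup1 and Cdc20b to make the many basal bodies their cilia need. Ak7 is an adenylate kinase of motile cilia, and 1500015O10Rik, also called Ecrg4, encodes a secreted peptide precursor of ependyma and choroid plexus.

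The short stretches of DNA shown here lie upstream of RefSeq start sites of leading genes of the Foxj1-type wells and hold letters that RFX or forkhead factors are known to bind. RefSeq (build GRCm38.p6) gave a promoter window for 9 of the 13 genes searched, which are the 3 rule genes and the 10 most strongly raised genes among those at 50 CPM or more with 1 direction on every plate. Of those 9, 4 had a match within the 250 bases before a start site, on either strand, to the RFX core GTTGCC, the full RFX site (GTTNCC, NN and GGNAAC joined, which can contain the core) or the forkhead site GTAAACA. Each is written 5′ to 3′ on the strand of the gene with the match in capitals and up to 30 bases on each side, and of the 2 matches of Lrrc23 1 is shown. GENCODE, from which gene coordinates are given below, starts Pifo and Dynlrb2 further upstream, so the stretch of Pifo and the end of that of Dynlrb2 lie within these genes there.
Ak7, forkhead site, chr12:105705821-105705887, plus strand: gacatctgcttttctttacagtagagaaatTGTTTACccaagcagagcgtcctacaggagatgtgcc
Pifo, full RFX site, chr3:106001498-106001547, minus strand: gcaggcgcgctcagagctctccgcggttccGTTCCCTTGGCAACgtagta
Lrrc23, RFX core, chr6:124779731-124779796, minus strand: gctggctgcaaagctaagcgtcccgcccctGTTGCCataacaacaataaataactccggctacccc
Dynlrb2, RFX core, chr8:116504934-116504999, plus strand: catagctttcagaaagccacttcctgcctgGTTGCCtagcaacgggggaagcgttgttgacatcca
The RFX core stood in 42 of 120 windows of the motile cilium lists (35%), in 10 of 35 windows of the intraflagellar transport list (28.6%) and in 3195 of 27025 genes with any window (11.8%). For the forkhead site these shares were 7.5%, 0% and 3.54%, and for the full RFX site 2.5%, 5.71% and 0.444%. Among 9343 windows of the genes tested below, 13.1% held the RFX core, 2.75% the forkhead site and 0.642% the full RFX site. In the radial glia list the RFX core stood in 4 of 20 windows (20%). Median GC content was 54.8% in the cilium windows, 52.4% in all windows and 60.4% in those of the genes tested. A match is a description of letters and shows no binding.

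Foxj1-type wells were unevenly spread over the plates. They made up 4 of 283 kept wells on left plate 1 (1.41%, exact 95% interval 0.386% to 3.58%), 1 of 54 on left plate 2 (1.85%, 0.0469% to 9.89%), 7 of 279 on right plate 1 (2.51%, 1.01% to 5.10%), 6 of 133 on right plate 2 (4.51%, 1.67% to 9.56%) and 34 of 333 on the plate of both sides (10.2%, 7.18% to 14.0%). The plate of both sides thus held most of them. Left plates averaged 1.63% ± 0.310 and right plates 3.51% ± 1.42 (SD, n = 2 each). This difference gave p = 0.333 in a two-sided exact permutation test, the smallest value that 2 against 2 plates allow. Intervals cover counting error only.

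**Figure D1:**
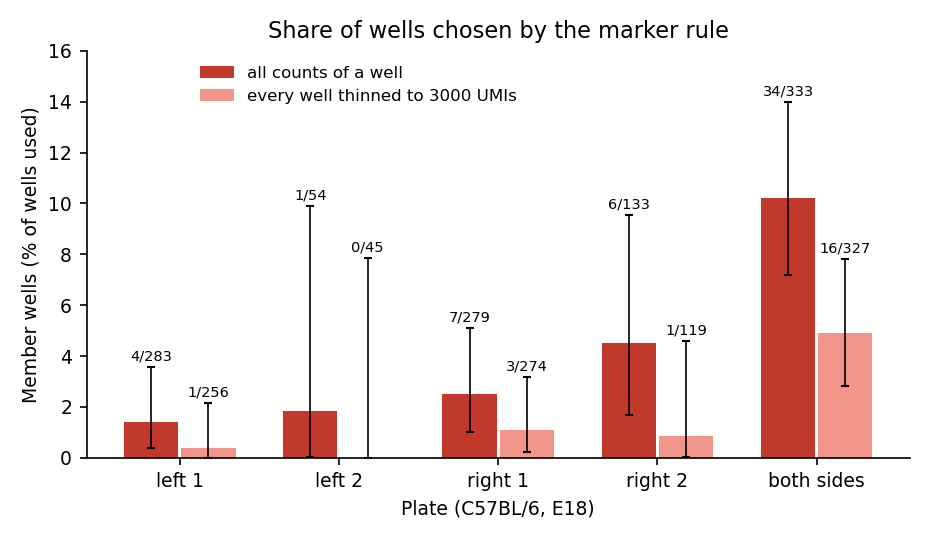
Share of wells that met the rule on each C57BL/6 plate, from all counts of a well (dark) and after thinning every well to 3000 UMIs (light), with exact 95% intervals; numbers over the bars are members and wells used. The plate of both sides stands highest at both depths, with 34 of 333 and 16 of 327 wells.

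Detection of these genes depends on depth. With every well thinned to 3000 UMIs, 21 of 1021 wells met the rule (2.06%), and 16 of them were on the plate of both sides. Kept wells of a plate summed to between 1849860 and 6586450 counts, and Foxj1-type wells to between 31852 on left plate 2 and 503112 on the plate of both sides. Median counts were 15360 in Foxj1-type wells and 18994 in the other wells. By plate the order differed: Foxj1-type wells had a lower median than all kept wells on left plate 1 and for both sides (14461 against 18701), and a slightly higher one on the other 3 plates. None of the 52 exceeded 3 times the median counts of its plate, which 10 kept wells did.

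Among the rule genes, Foxj1 (chromosome 11, 116330704 to 116335399, minus strand; GRCm38) had a count in 48 of the 52 wells, 1500015O10Rik (chromosome 1, 43730602 to 43742578, plus strand; uncertain, since Gm29155 lies on its other strand) in 42, and Ak7 (chromosome 12, 105705976 to 105782447, plus strand) in 27. All 3 genes were found in 13 wells, Foxj1 with 1500015O10Rik in 25, Foxj1 with Ak7 in 10, and Ak7 with 1500015O10Rik in 4. Neuron-type wells are other wells with at least 2 of Stmn2, Tubb3 and Elavl3 that are not radial glia-type, and they should lack Foxj1. They had a Foxj1 count in 45 of 794 (5.67%) at a median of 20625 counts, and that share is taken as the background level. Any such well with Foxj1 and another rule gene counts as a Foxj1-type well, so the selection itself can lower this share. Radial glia-type wells, other wells with at least 2 of Sox2, Hes5 and Slc1a3, had a Foxj1 count in 25 of 177 (14.1%) at a median of 16497 counts. They leave out 39 of the 52 Foxj1-type wells, which also carried at least 2 of these genes, so the selection can lower this share too. Summed over a plate, Foxj1 stood in Foxj1-type wells at 50.5 counts per 1e6 counts (CPM) on left plate 1, 31.4 on left plate 2, 243 on right plate 1, 116 on right plate 2 and 412 for both sides. In the other wells it stood at 2.40 to 8.81 CPM.

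The 52 wells were not of 1 kind. Each was placed by its counts per 10000 over 137 genes of 4 motile cilium lists (dynein arms, dynein assembly, spokes and central pair, other axoneme parts), which leave out the rule genes. The level ran from 7.31 to 645 with a median of 46.1, against a median of 10.8 and a highest value of 142 in the other wells. At the top, 10 Foxj1-type wells exceeded every other well, and 33 exceeded the 95th percentile of the other wells, 31.2. Of these 10, right plate 1 held 2 and the plate of both sides 8, and 7 had all 3 rule genes. Mitochondrial counts exceeded 10% in 4 of these 10 wells, in no other Foxj1-type well and in 5 of the 1030 other wells.

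At the bottom, 7 Foxj1-type wells had neuron-list levels of 57.6 to 87.7 counts per 10000, at or above the 10th percentile of neuron-type wells (51.2), while the next highest had 41.5. Their cilium levels were 7.31 to 10.8, as low as in wells without any rule gene (median 10.5). In 6 of the 7 each rule gene was seen by a count of 1, none had all 3 rule genes, and the left plates held 2, the right plates 4 and the plate of both sides 1. The data therefore go against the ependymal label for these 7 wells, and the whole group is called Foxj1-type below. The label is not settled for further wells, since only 33 of the 52 exceeded the 95th percentile of the other wells (31.2). The 17 wells of lowest cilium level, which include these 7, reached at most 27.3. The rest of these 17 had radial glia levels of 111 to 668 counts per 10000, against a median of 127 in radial glia-type wells. Whether they are ependymal was not tested. Neuron transcripts of the 7 wells enter every sum over the group, and the part of these 7 in the results was not tested. At the threshold itself, the 11 members with exactly 2 rule-gene counts had a median cilium level of 10.8 and a median neuron level of 57.6. Just outside it, 48 wells with 1 rule gene at 2 or more counts had a median cilium level of 15.2, and 127 wells with 1 rule gene at 1 count had 11.9.

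**Figure D2:**
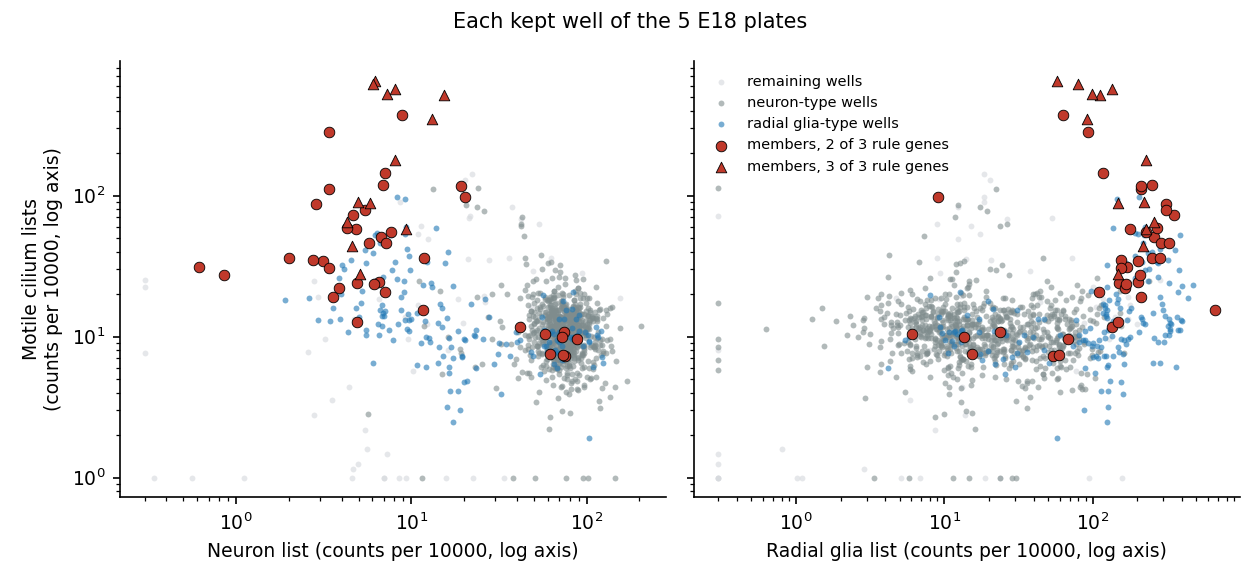
Every kept well of the 5 plates by its counts per 10000 of the motile cilium lists (log axis; values below 1 drawn at 1) against the neuron list (left) and the radial glia list (right; log axes, values below 0.3 drawn at 0.3). Red symbols are Foxj1-type wells, triangles those with all 3 rule genes. They stretch from 7.31, within the neuron-type wells, to 645, above all other wells.

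Ordered by cilium level, the Foxj1-type wells differed in several other lists, given here as a description. The 17 lowest, 18 middle and 17 highest wells had median levels of the radial glia list of 135, 242 and 117 counts per 10000. Their median cell-cycle levels were 9.25, 8.94 and 3.95, and Mki67, a marker of dividing cells, was seen in 4, 3 and 0 wells. Median levels of the list of other ependymal genes were 19.6, 24.5 and 37.0. Those of the roof plate and subcommissural organ list were 42.8, 30.1 and 20.4. Transcripts of the dissociation response, which handling of tissue is known to raise, stood at 9.68, 18.8 and 40.8. The plate of both sides, whose other wells summed highest for that list, gave 9, 11 and 14 of these wells, and within it the medians were 31.8, 25.2 and 42.7. The part of this response in the order was not tested. Median total counts were 17666, 16202 and 10668, so the most ciliated wells were also the shallower ones.

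Ccdc153, Tmem212 and Rarres2, which belong to the list of other ependymal genes, were seen mostly in the most ciliated wells. Ccdc153 was seen in 7 wells, all among the 10 that exceeded every other well, and in 6 of the 1030 other wells. Tmem212 was seen in 6 wells, 5 of them among those 10, and in 7 other wells. Rarres2 was seen in 9, 6 of them among the 10, and in 14 other wells. Of the basal body genes, Deup1 was seen in 6 wells, 5 of them among the 10, and in 17 other wells. Ccno was seen in 4 wells, and Mcidas and Cdc20b in 2 each, all among the 10, against 3, 4 and 13 other wells. Gmnc was seen in 2 wells, 1 of them among the 10, and in 15 other wells. Gfap, which marks astrocytes and some adult ependyma, had no count in any of the 52 wells, which allows a share of wells with a Gfap count of up to 5.77% at this depth and sets no limit on wells that express it. Of the 2 Mcidas wells, 1 had 6 and the other 2 Mcidas counts, and both carried Ccno, Deup1 and Cdc20b but no Tmem212 or Rarres2. The well with 2 Mcidas counts also had 2 Ccdc153 counts.

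Genes outside the rule were compared between Foxj1-type wells and the other kept wells of the same plate, with counts summed per plate, on the 3 plates with at least 5 Foxj1-type wells (right 1, right 2 and both sides; n = 3). Foxj1-type wells had higher levels of motile cilium and radial glia genes and lower levels of neuron and habenula genes. With edgeR's quasi-likelihood test and a term for the plate, 802 of 12816 genes were higher (6.26%) and 984 lower (7.68%) at an adjusted p under 0.05. Leaving out the plate of both sides left 183 and 187 genes, and leaving out right plate 2 gave 1177 and 1537. Wells that share a plate also share its library, and the other wells include neurons and red blood cells.

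Of the 137 cilium genes in the table, 90 passed the filter on low counts and 65 of these were higher, none lower, with a median log2 fold change of 2.89 against -0.10 over all genes tested. A gene that is silent in the other wells can pass that filter only through the Foxj1-type wells. The count without the filter is therefore given too: 97 of 137 were higher and none lower, against 846 higher of 33088 over all genes. Without the plate of both sides, 21 of 83 were higher (183 of 12815 over all genes). Without right plate 2 it was 103 of 122 (1177 of 14009). Wells that had all 3 rule genes, none of them neuron-rich, were also taken alone, on the 3 plates with at least 2 of them (2, 2 and 8 wells). There, 66 of 82 were higher (353 of 11995). With all 5 plates, whatever their number of Foxj1-type wells, 18 of 41 were higher (178 of 11053), with a median of 1.39. Both of these settings were chosen after seeing the data. The 10 strongest rises among genes at 50 CPM or more were Pifo, Lrrc23, Dynlrb2, Cfap126, Wdr63, Cfap65, Ccdc146, Meig1, Daw1 and Crocc2, with log2 fold changes from 5.53 (Crocc2) to 6.55 (Pifo). Pifo, Cfap65 and Ccdc146 overlap other annotated genes and are uncertain, because the sources used here do not say whether counting used strand. The same holds for Adgrv1, Rfx3, Rfx4, Trp73, Deup1, Cdc20b, Ift80, Fzd3, Ank3, Nnat, Top2a, Mki67, Otx2, Olig1, Pdgfra, Lhx2, A230006K03Rik, Oprm1, Resp18, Gpr17, Col19a1, Cfap52, 1500015O10Rik, Hydin, Tmem212, Rarres2, Ezr, Gfap, Hes5, Slc1a3, Sox2, Elavl3 and Tubb3 where they are named.

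Dynein arms are the motors that slide axonemal microtubules. Of 29 such genes measured, 20 passed the filter on low counts and 15 of these were higher, against 6.26% of all genes tested. Dynlrb2 (chromosome 8, 116504974 to 116515915, plus strand), a dynein light chain, stood at 290 CPM on right plate 1, 19.4 on right plate 2 and 149 on the plate of both sides, against 0.738, 0.905 and 3.12 CPM in the other wells of these plates. All 3 plates lay above their other wells, which was a condition for a leading gene, while left plates 1 and 2 had no count in 4 and 1 Foxj1-type wells. The fitted log2 fold change was 6.21 ± 0.62 (SE; adjusted p = 8.54e-05). Dnah9, a heavy chain of the outer arm, stood at 187, 19.4 and 255 CPM against 17.9, 16.3 and 20.9, so that right plate 2 lay barely above its other wells (2.73 ± 0.48, adjusted p = 0.00227). Foxj1-type wells of right plate 2 summed to 154783 counts, so the 19.4 CPM of Dynlrb2 and of Dnah9 rest on very few counts. Dnah6, a heavy chain of the inner arm, stood at 187, 38.8 and 207 CPM against 2.58, 4.22 and 2.30. Ccdc114, which docks the outer arm, was at 159, 32.3 and 179 CPM against 5.91, 6.04 and 8.71. Dnah6, Dnah9 and Ccdc114 overlap other genes and are uncertain.

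Factors that assemble dyneins in the cytoplasm or bring them to the cilium were higher in 4 of 7 tested genes, among 12 measured. Daw1 (chromosome 1, 83159752 to 83210574, plus strand) stood at 65.5, 45.2 and 175 CPM on the 3 plates against 0.184, 1.81 and 3.78, and had a count in 30 of the 52 wells. Ttc12 was at 70.7 ± 33.7 CPM (SD, n = 3) against 2.90 ± 1.47, and Dnaaf3, uncertain through overlap with Tnni3, at 25.8 ± 5.58 against 0.648 ± 0.875. For radial spokes and the central pair, which set the beat, 11 of 19 tested genes were higher, among 26 measured. Spef2 (chromosome 15, 9578193 to 9748868, minus strand), a central pair protein, stood at 234, 45.2 and 269 CPM against 3.88, 4.53 and 5.75 (log2 fold change 5.00 ± 0.45, adjusted p = 5.27e-05). Cfap54 stood at 192 ± 115 CPM against 25.2 ± 1.73, and Hydin, uncertain, at 127 ± 106 against 3.31 ± 0.593.

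Other axonemal genes were higher in 35 of 44 tested, among 70 measured outside the rule. Lrrc23 (chromosome 6, 124769863 to 124779727, minus strand), whose upstream letters are printed above, stood at 188, 32.3 and 149 CPM against 1.48, 0.604 and 1.81 (log2 fold change 6.30 ± 0.48, adjusted p = 3.50e-05). It was seen in 17 of the 52 wells. Enkur, a microtubule inner protein and uncertain through overlap, stood at 103, 51.7 and 344 CPM against 5.35, 4.83 and 14.5, and was seen in 38. Tppp3, a tubulin polymerization protein, was at 506, 96.9 and 307 CPM against 88.4, 58.3 and 47.2. For each of these 3 genes right plate 2 had the lowest Foxj1-type level of the 3 plates. It still lay above its own other wells, which for Lrrc23 was a condition of its choice as a leading gene.

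Intraflagellar transport and BBSome genes serve primary cilia as well as motile ones. Of 40 tested, 4 were higher (Ift27, Ift74, Ift80 and Wdr19) and none lower, near the 6.26% of all genes that were higher, with a median log2 fold change of 0.60 against -0.10 over all genes. None of 38 was higher without the plate of both sides, 1 without right plate 1 and 12 without right plate 2. Ift74 stood at 122, 123 and 267 CPM against 65.0, 64.6 and 68.1 (1.20 ± 0.31, adjusted p = 0.0187; uncertain through overlap with Lrrc19). On the list drawn up for multiciliation regulators, which takes in several RFX factors, 9 of 15 genes other than Foxj1 were tested. Of these, Rfx4, Rfx2 and Trp73 were higher, while against radial glia-type wells none of 6 tested was higher. Rfx2 stood at 65.5, 6.46 and 77.5 CPM against 3.88, 5.13 and 8.38 (2.83 ± 0.66, adjusted p = 0.0111). Its level on right plate 2, where Foxj1-type wells summed to 154783 counts, rests on very few counts. Rfx3 stood at 281, 90.5 and 563 CPM against 121, 100 and 185 and did not pass (0.84, adjusted p = 0.108). Without the plate of both sides 1 of 8 was higher, and without right plate 2, 5 of 9. Gmnc, Mcidas, Ccno, Deup1 and Cdc20b did not pass the filter on low counts and were not tested. The Mcidas, Ccno, Deup1 and Cdc20b counts of Foxj1-type wells were all on the plate of both sides.

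**Figure D3:**
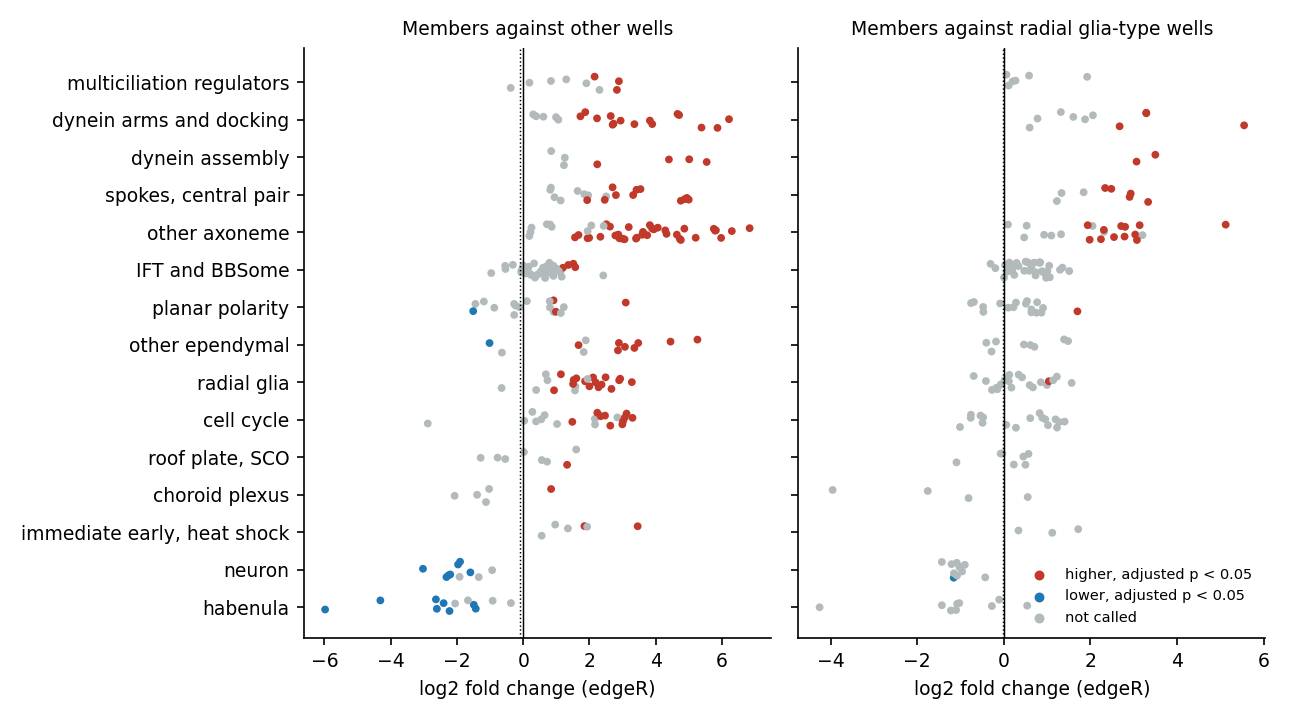
Fitted log2 fold change of each tested gene, by list, for Foxj1-type wells against all other wells (left) and against radial glia-type wells (right) on 3 plates; red is higher and blue lower at adjusted p < 0.05, grey not called, and the dotted line is the median of all genes. Cilium genes lie to the right in both panels, with 65 and 23 called, while radial glia genes do so in the left panel, with 16 and 1 called.

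Planar polarity genes orient cilia within the ependymal sheet. Of 17 tested, Celsr1, Vangl2 and Fzd3 were higher and Ank3, which also belongs to the axon initial segment of neurons, was lower. Of all genes tested, 6.26% were higher and 7.68% lower. The list as a whole had a median log2 fold change of 0.11 against -0.10 over all genes, with 9 of 17 above 0. Without the plate of both sides 1 was higher and none lower, and without right plate 2, 5 and 2. Celsr1 (chromosome 15, 85898929 to 86033777, minus strand) stood at 140, 84.0 and 191 CPM against 11.1, 9.05 and 23.5 (log2 fold change 3.10 ± 0.33, adjusted p = 0.000109). Of 21 other ependymal genes measured, 12 were tested, of which 8 were higher and 1, Nnat, was lower. Without the plate of both sides 4 of 12 were higher, and without right plate 2, 18 of 20. Clu, a secreted chaperone, stood at 187, 298 and 514 CPM against 28.8, 11.5 and 44.6. Mlc1, a membrane protein of astroglia and ependyma, stood at 178, 149 and 306 CPM against 20.1, 16 and 41.8. Ezr, a membrane linker, stood at 178 ± 131 CPM against 46.3 ± 17.6 (SD, n = 3; 1.67 ± 0.38, adjusted p = 0.00930; uncertain).

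Of all genes tested against the other wells, 6.26% were higher and 7.68% lower. Of 23 radial glia genes tested, 16 were higher and none lower, with a median log2 fold change of 1.87. Within the group their summed level did not rise steadily with cilium level, with medians of 135, 242 and 117 counts per 10000 from the lowest to the highest wells. On left plates 1 and 2 the summed list stood at 5866 and 1541 CPM in Foxj1-type wells against 3646 and 4002 in the other wells. Among wells with all 3 rule genes, 5 of 23 were higher. Of the 52 wells, 39 had at least 2 of Sox2, Hes5 and Slc1a3. Sox9, a transcription factor of radial glia and astroglia, stood at 1070, 936 and 862 CPM against 132, 178 and 146 (log2 fold change 2.49 ± 0.25, adjusted p = 9.32e-05). Dbi, a lipid-binding protein rich in glia, stood at 1080, 904 and 1319 CPM against 94.7, 143 and 152 (2.93 ± 0.27, adjusted p = 5.27e-05). Fabp7, the brain fatty acid binding protein of radial glia, stood at 1776 ± 708 CPM against 349 ± 135. The label genes outside the rule, which are not tested, were detected in 47 wells for Adgrv1 and 49 wells for Vim of 52, against 411 and 607 of 1030 other wells. Vim, the intermediate filament of radial glia and ependyma, stood at 1382, 1361 and 3203 CPM on the 3 plates against 115, 268 and 487.

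Cell-cycle genes were higher in 10 of 20 tested and lower in none, while 6.26% of all genes tested were higher. These counts rest on few wells: Mki67 or Top2a was seen in 10 of the 52 wells and in 90 of 1030 others. Mki67 stood at 150, 71.2 and 93.6 CPM against 5.54, 15.1 and 14.0. On right plate 1 all 16 Mki67 counts came from 1 well, and on right plate 2 all 11 came from 1 well. The same wells held all 21 and 6 Top2a counts of the Foxj1-type wells there. Top2a was at 197, 38.8 and 134 CPM against 2.40, 39.5 and 12.0, so right plate 2 lay below its other wells, and 56.5% of its counts came from 1 well. Without the plate of both sides, 1 of 20 cell-cycle genes was higher, without right plate 1, 6 of 20, and with all 3 rule genes, 0 of 17.

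Neuron genes were lower in 7 of 10 tested and habenula genes in 8 of 12, with none higher in either list. Of all genes tested, 7.68% were lower. Stmn2, a growth-associated tubulin regulator of neurons, stood at 582, 754 and 141 CPM against 1889, 1453 and 1628 (log2 fold change -2.20 ± 0.41, adjusted p = 0.00301). Pou4f1, the transcription factor of habenula neurons, stood at 394, 240 and 19.9 CPM against 661, 798 and 369. The plate of both sides was the lowest for each, and all 3 plates lay below their other wells. Without that plate, 4 of 10 neuron and 3 of 12 habenula genes were lower, and with all 5 plates 6 of 10 and 4 of 12. On left plate 1 the summed habenula list stood at 7726 CPM in the 4 Foxj1-type wells against 6190 in the other wells, and on left plate 2 at 5559 in its 1 such well against 6236. The summed neuron list stood there at 4392 against 7085 CPM and at 6144 against 6242. The levels on the right plates came mostly from the neuron-rich wells: on right plate 1, 2 of 7 wells held 55 of 62 Stmn2 and 37 of 42 Pou4f1 counts, and on right plate 2, 2 of 6 held 111 of 116 and 37 of 37. Calb2, a calcium-binding protein, stood at 28.1, 0 and 5.96 CPM against 212, 251 and 309. Tac1, which encodes substance P, had 1 count in the Foxj1-type wells of the 3 plates, 62.5-fold lower by CPM than in the other wells (counting interval 11.2 to 2471). Sst, the somatostatin gene, had none against 966 counts, at least 16.6-fold lower at a floor of 3 counts over the group. The genes of largest fall also included Pdgfra, Wif1, Lhx2, A230006K03Rik, Oprm1, Resp18 and Kcng4, each with at most 3 counts in these Foxj1-type wells.

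Genes of other cell types bear on the label, and 6.26% of all genes tested were higher and 7.68% lower. Otx2, found in choroid plexus and in dorsal progenitors, was the only choroid plexus gene of 5 tested that was higher, at 393, 434 and 450 CPM against 199, 231 and 206. Ttr, the defining choroid plexus transcript, was seen in 4 of the 52 wells and in 39 of 1030 others. Of 8 tested genes of roof plate and subcommissural organ, Wnt3 was higher. Sspo, which encodes the subcommissural organ protein SCO-spondin, was seen in 3 wells, all among the 10 most ciliated, and 91.7% of its counts came from 1 well. The microglia list summed to 0 to 12.9 CPM and the list of vessels and fibroblasts to 0 to 73.6 CPM in Foxj1-type wells over the 5 plates, against 10.1 to 51.4 and 14.3 to 58.7 CPM in the other wells. Pdgfrb was higher in the latter list, at 9.35, 58.2 and 19.9 CPM against 1.11, 0.905 and 3.29, with 40.0% of its counts in 1 well. Haemoglobin genes were lower in 4 of 4 tested and in 0 of 4 without right plate 1, and the summed red blood cell list of the other wells ranged from 26.3 CPM on the plate of both sides to 19294 on left plate 1.

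In the dissociation response list 2 of 6 tested genes were higher, the immediate early genes Fos and Egr1, against 6.26% of all genes. None of 6 was higher without the plate of both sides, where Fos did not pass the filter on low counts, and none without the plate term. Without right plate 1, 4 of 8 were higher, and without right plate 2, 6 of 11. Fos stood at 0, 77.6 and 1012 CPM against 1.66, 1.81 and 109, so the rise came from right plate 2 and the plate of both sides, and radial glia-type wells of the latter stood at 456. Egr1 stood at 0, 6.46 and 911 CPM against 10.2, 6.94 and 124. Its log2 fold change without the plate of both sides was -1.31 and did not pass (adjusted p = 0.821). The summed list stood at 468 and 472 CPM in Foxj1-type wells of left plates 1 and 2, below 516 and 669 in the other wells. It stood at 1041, 706 and 3571 CPM on right plate 1, right plate 2 and for both sides, above 448, 609 and 960. The part of this response in the cilium results was not tested.

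**Figure D4:**
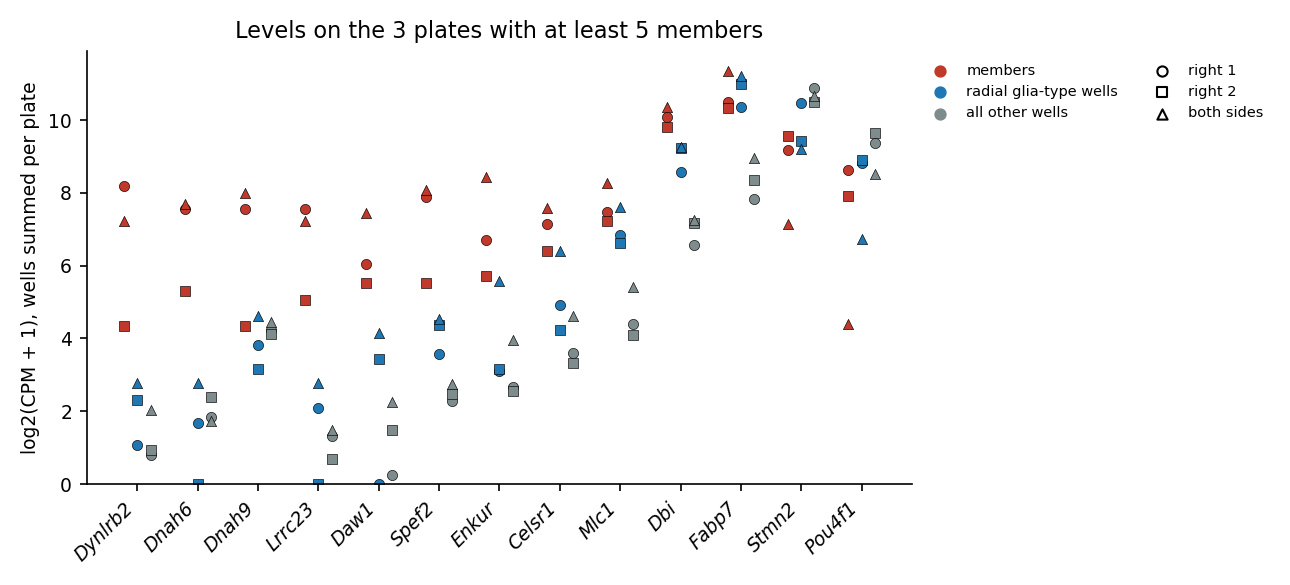
Levels of 13 genes, as log2(CPM + 1) of wells summed per plate, in Foxj1-type wells (red), radial glia-type wells (blue) and all other wells (grey) of right plate 1 (circles), right plate 2 (squares) and the plate of both sides (triangles). The red symbols of Lrrc23 (32.3 to 188 CPM) and Dnah6 stand apart, those of Dnah9 do not on right plate 2 (19.4 CPM), and for Fabp7 red and blue overlap.

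Radial glia-type wells are the nearest comparison, since most Foxj1-type wells carry radial glia genes. Against these wells of the same plates, 63 of 8883 genes were higher (0.709%) and 56 lower (0.63%). Of the motile cilium genes, 23 of 41 tested were higher and none lower, with a median log2 fold change of 2.32 against -0.03 over all genes. Without the filter on low counts, 79 of 136 were higher (285 of 25092 over all genes), and with all 5 plates 1 of 17 (1 of 7627). Most of the 63 higher genes are on none of the 4 cilium lists. The lists of other ependymal genes (0 of 8 tested among 21, median 0.54), multiciliation regulators (0 of 6 among 15 besides Foxj1, 0.24) and intraflagellar transport (0 of 34 among 40, 0.57) had no gene that passed in this comparison. The remaining genes of these lists did not pass the filter on low counts, so they were not compared. Radial glia genes were higher in 1 of 20 tested, Dbi, and cell-cycle genes in none of 17, with 7 of 20 and 6 of 17 without right plate 2. All of these calls depended on plates: 1 gene passed without the plate of both sides, and no cilium gene of the 30 then tested. The count over all genes was 797 without right plate 2 and 214 without right plate 1. It was 6 without the plate term, with no cilium gene called.

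The largest rises against radial glia-type wells were in Dnah6, Lrrc23, 1700028P14Rik, Ccdc162 and Ccdc81. Dnah6 stood at 187, 38.8 and 207 CPM against 2.18, 0 and 5.91 in radial glia-type wells, a log2 fold change of 5.55 ± 0.49 (adjusted p = 0.000839; uncertain through overlap, as are 1700028P14Rik and Ccdc162). Celsr1 was at 140, 84.0 and 191 CPM against 29.4, 17.8 and 83.6 (1.70, adjusted p = 0.0342). Dbi was at 1101 ± 208 CPM (SD, n = 3) against 532 ± 129 (1.04, adjusted p = 0.0493). No radial glia gene of 20 passed with DESeq2, with upper quartile scaling or in wells with at least 2000 counts. The median log2 fold change of 20 radial glia genes was 0.26. Sox9 stood at 1070, 936 and 862 CPM against 484, 512 and 554 in radial glia-type wells, higher on each of the 3 plates, and did not pass (0.85, adjusted p = 0.0709).

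The largest falls against radial glia-type wells were in Pdgfra, Bcan, Sox10, Gpr17 and Col19a1, of which Pdgfra, Sox10 and Gpr17 mark the oligodendrocyte lineage. Pdgfra, the growth factor receptor of oligodendrocyte precursors, had no count in the Foxj1-type wells and stood at 243, 467 and 177 CPM in radial glia-type wells, at least 65.4-fold lower at a floor of 3 counts over the group. Sox10 had 1 count against 274, 80.4-fold lower (counting interval 14.3 to 3186). Of 6 tested genes of the oligodendrocyte lineage list, 3 were lower and none higher, so the radial glia-type class carried transcripts of that lineage. It carried neuron transcripts as well, with Stmn2 at 1414, 688 and 585 CPM. Olig1 and Olig2, shared by progenitors and that lineage, stood above the other wells (1.30 and 1.23, adjusted p = 0.00526 and 0.0147) and did not pass against radial glia-type wells.

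Side was compared with 5 Foxj1-type wells from left and 13 from right plates. Neuron-rich wells made up 2 of the 5 and 4 of the 13, with 68.4% and 46.9% of the counts (outside mitochondrial genes), so both sums hold many neuron transcripts. No gene of 2524 passed edgeR's test (0%), with 242 at an unadjusted p under 0.05, and 3 genes passed with DESeq2. Leaving out 1 plate at a time gave 6 to 249 genes, in fits where 1 plate stands for a side and is assumed to vary like the others. In data simulated for this comparison (2569 genes), 87.9% of changes of 3 and 30.6% of changes of 1.5 on the log2 scale were called. The simulation assumed a fixed dispersion, with no plate effect and no mix of cell types. These rates therefore do not give the power of the comparison in the real sums.

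Unspliced transcripts were read as a measure that the rule did not use. They made up 23.5% ± 1.60 of counts in Foxj1-type wells and 24.2% ± 2.71 in the other wells (SD, n = 3 plates). The mean difference was -0.631 percentage points, with an SD of 1.23, and p = 0.75 in a two-sided exact sign-flip permutation test, whose smallest value with 3 plates is 0.25. On left plates 1 and 2, with 4 and 1 Foxj1-type wells, the shares were 30.03% against 22.8% and 31.3% against 29.2%. Over all 5 plates the difference was 1.497 percentage points (SD 3.54), higher on 3 of 5 plates, with p = 0.438 in the same exact test (smallest 0.0625).

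Plates of the Brn3a-tauLacZ line hold wells that the C57BL/6 comparison did not use. The same rule found 106 wells among 3729 there, and 5 plates had at least 5 of them: 14 of 137 wells on E13 plate 2 (10.2%), 44 of 267 on E18 plate 1 (16.5%), 6 of 287 on P4 plate 1 (2.09%), 12 of 326 on P7 plate 1 (3.68%) and 15 of 342 on adult plate 2 (4.39%). E18 plate 2 had none in 110 wells, which allows a share of up to 2.73%, so plates of 1 stage differed widely. With these 5 plates, 295 of 10925 genes were higher (2.7%) and 73 lower (0.668%) in the same test, and 207 in all without E18 plate 1. Of the 80 tested cilium genes, 69 were higher and none lower, with a median log2 fold change of 3.31 against -0.10 over all genes. The Foxj1-type wells of E13 plate 2 carried choroid plexus transcripts, with that list at 26388 CPM against 1037 in the other wells. The ependymal label is therefore not given to them. Without that plate, 284 genes were higher and 29 lower.

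The lists overlapped in part. In the Brn3a-tauLacZ line, 2.7% of all genes tested were higher and 0.668% lower. Of the 802 genes higher at E18 in C57BL/6, 663 were tested in that line. There, 197 were higher too, 24.6% of the 802 and 66.8% of the second list, and none was lower. Called or not, 628 of the 663 had a log2 fold change above 0. Among these 197 were 51 cilium genes. Of the 984 lower genes, 925 were tested there, and 891 of these had a log2 fold change below 0. Lower in both were 48, 4.88% and 65.8% of the lists. Of the 63 genes higher against radial glia-type wells, 45 were among the 197. The 3 rule genes defined the group in each line, and no sample is shared.

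The largest rises in the Brn3a-tauLacZ line were in Odf3b, Cfap52, Crocc2, Daw1 and Spag17, chosen among genes with the same direction on every plate. Daw1 stood at 12.9 CPM on E13 plate 2, 103 on E18 plate 1, 54.4 on P4 plate 1, 52.9 on P7 plate 1 and 202 on adult plate 2, against 0.269 to 9.86 CPM in the other wells. Spag17, a central pair protein and uncertain through overlap, was at 108, 214, 7.77, 46.7 and 599 CPM against 0.672 to 9.86. Dynlrb2 was at 423, 284, 62.2, 96.6 and 422 CPM against 0.941 to 30.6. Cell-cycle genes were not called there, 0 of 9 tested, and none of the 10 neuron genes passed (median log2 fold change -1.41). Radial glia genes were higher in 7 of 23, against 2.7% of all genes tested in that line.

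Sspo and Ttr were seen in larger shares of wells on some plates of the Brn3a-tauLacZ line than in C57BL/6, in Foxj1-type and in other wells. Sspo was seen in 22 of 44 Foxj1-type and 51 of 223 other wells on E18 plate 1, in 9 of 15 and 73 of 327 on adult plate 2, and in 3 of 52 and 16 of 1030 in C57BL/6. It stood at 1115 CPM on E18 plate 1, 1091 on P4 plate 1 (from 1 of 6 wells), 5671 on adult plate 2, 9.34 on P7 plate 1 and 0 on E13 plate 2, and it was higher than in the other wells over the 5 plates (log2 fold change 5.30 ± 0.90, adjusted p = 0.0104). Msx1, a roof plate factor, was higher too, at 21.8 to 399 CPM against 1.04 to 57.2. These were the 2 of 10 tested genes of the roof plate and subcommissural organ list that were higher; none was lower, and the list's median log2 fold change was 0.06 against -0.10 over all genes. Ttr was seen in all 14 Foxj1-type wells of E13 plate 2, at 24656 CPM, and also in 118 of 123 other wells there, at 757 CPM. On E18 plate 1 it was seen in 27 of 44 wells and 112 of 223 others. The difference between the lines was not tested, and line, plate and dissection cannot be told apart. For the E13, P4, P7 and adult plates stage cannot be told apart from line either, since all C57BL/6 plates are from E18.

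**Figure D5:**
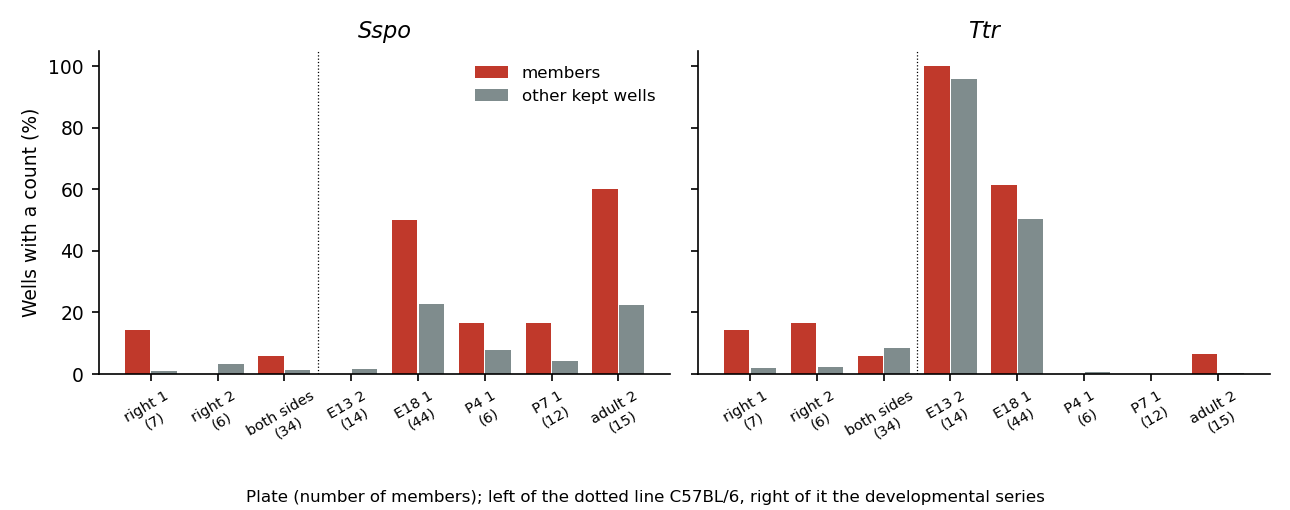
Share of wells with a count of Sspo (left) and Ttr (right) in Foxj1-type wells (red) and the other kept wells (grey) of the 8 plates with at least 5 Foxj1-type wells, whose number is in brackets. Sspo reached 22 of 44 wells on E18 plate 1 and 9 of 15 on adult plate 2, and Ttr 14 of 14 on E13 plate 2.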

How the data were processed

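The authors deposited expected counts, per the values themselves: whole UMI counts per gene and well, corrected for UMI collisions and not scaled between wells. Inverting the correction gave whole numbers for 100% of the values (tolerance 1e-06). The submitters' processing notes name Trim Galore, STAR 2.5.3a and mm10; the sources used here give neither the annotation nor the use of strand. Coordinates are GENCODE M21 (GRCm38), 1-based. Spike-in rows were left out of all sums.

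The members and gene lists were chosen with earlier results of these data known. Named genes were the 10 largest changes in each direction against all other wells (5 in the other comparisons) that passed, had the same direction on every plate and reached 50 CPM, and up to 4 called genes of each list with the highest member CPM; others are named for their role. Expected counts were summed per plate and class, rounded, and tested with edgeR 4.0.16 (filterByExpr, TMM, quasi-likelihood test, plate as a term; R 4.3.3), adjusted by Benjamini-Hochberg over all genes tested, threshold 0.05; DESeq2 1.42.0 was an alternative. Of the 5 plates, 3 held the 5 members required. CPM are per 1e6 counts of the summed wells without spike-ins. No doublet caller was run. Plates number their wells alike, and 1 well number held a member on more than 1 plate (2 members, both neuron-rich). The tests were tried on simulated data. Alternatives were DESeq2, other scaling, no filter, no plate term, leaving out plates, whole UMIs, other well filters and stricter or looser rules.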

Additional observations from a re-analysis of the deposited data

How the results depend on the processing

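Against all other wells, 1786 genes passed. Leaving out a plate gave 370 to 2714, and 2 settings chosen after seeing the data gave 1110 (all 3 rule genes, plates with at least 2 such wells) and 583 (all 5 plates). The other 7 settings, including the fit with no replicate block (no plate term), kept the count within 1.5 times. Against radial glia-type wells 119 genes passed, with 610 without the filter on low counts, 6 with no replicate block (no plate term), 1 to 797 without a plate, and 353 and 10 in the 2 added settings. Between left and right members no gene passed, also with the replicate number as a block (0); 3 passed with DESeq2, 20 without the filter and 6 to 249 without a plate. In the Brn3a-tauLacZ line 368 passed, and 207 to 313 without a plate, a setting also added after seeing the data. The share of member wells, 4.81%, was 1.54% thinned to 2000 UMIs, 2.06% thinned to 3000, 1.20% with all 3 rule genes and 21.0% with at least 1, where the left minus right difference turned from -1.88 to 0.647 percentage points. The unspliced difference ran from -1.19 to 0.0265 percentage points (without the plate of both sides) when 1 plate was left out, and was 1.497 over all 5 plates, added after seeing the data. The log2 fold change of Egr1 ran from -1.31 (without that plate) to 2.18. Among 80 genes named against other wells, 160 of 929 values under an alternative no longer passed and 1 reversed. Rules of all 3 genes on plates with 5 members, and after thinning to 3000 UMIs, could not be fitted, since 1 plate remained. Depth limits detection: a member can rest on 2 counts.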
